A study of Mus musculus with 2 samples.

Results

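Csf1, Il34 and Csf1r, the pair of ligands and the shared receptor of the colony stimulating factor 1 pathway, were followed across the cell types of healthy mouse liver. The 3 genes were chosen by name and are 3 of the 22508 genes of the table. Csf1 lies on the minus strand at chr3:107741048-107760469, Il34 on the minus strand at chr8:110741829-110805924 and Csf1r on the plus strand at chr18:61100598-61132149 (GRCm38, GENCODE vM21). The study held 1 group, wild-type (WT) C57BL/6 mice 8 weeks of age, in 2 samples, WT replicate 1 and WT replicate 2, whose livers were dissociated with enzymes, run on a Percoll gradient and sequenced with a droplet-based 3' kit. No treatment, mutant or other age was included, and the labels do not say whether the replicates came from separate mice. Replicate 1 had 7362 cells and 40645060 unique molecular identifiers (UMIs, counted molecules), and replicate 2 had 2341 cells and 11867207 UMIs.

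CSF1 and IL-34 are secreted cytokines with unrelated sequences that bind the same receptor tyrosine kinase, CSF1R. Signalling through CSF1R keeps macrophages and their precursors alive, so that a tissue's macrophages depend on the cells around them for ligand. In the liver the main macrophages are Kupffer cells, which sit in the sinusoids, the capillaries lined by sinusoidal endothelial cells, with stellate cells wrapped round the outside in the narrow space next to the hepatocytes. Stellate cells near the portal vein are known to carry the nerve growth factor receptor gene Ngfr, while those near the central vein carry Adamtsl2.

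Cells were assigned to types by gates on marker UMIs, and a type is called "-like" because its name rests on markers alone. The gates gave 15 types with at least 20 cells and 5 with fewer. Stellate-like cells (Lrat, Colec11, Ecm1, Hand2, Pth1r and Hhip) were 2340 of the 2341 cells of replicate 2, and their markers summed to 15210 CPM (UMIs scaled to a total of 1000000 per type), against at most 642.5 CPM in any other type. Replicate 1 held all the other types and 10 stellate-like cells. Any difference between stellate-like cells and another type is therefore also a difference between libraries, and the type and the library cannot be told apart. Of the 6765 cells of replicate 1 that passed the filters, 400 (5.91%) met no gate. With 1 group, and with each type other than the stellate-like cells in 1 library, no test between conditions or types was made. Intervals are exact 95% intervals (Poisson for CPM, binomial for shares, conditional binomial for ratios). They cover counting error only, not the spread between mice, and those of CPM and ratios also leave out the spread between cells.

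Csf1 was found in stellate-like cells and in several lining and stromal types, and its level in stellate-like cells rested on replicate 2. The 10 stellate-like cells of replicate 1 had 25.5 CPM (3.09 to 92.2), below the mesothelial-like, sinusoidal endothelial-like and portal fibroblast-like levels, so without replicate 2 the order of stellate-like cells and these types turns round. In replicate 2 stellate-like cells stood above them. Stellate-like cells of replicate 2 had 2893 Csf1 UMIs, a level of 243.8 CPM (235 to 253), and 1427 of 2340 cells (61.0%, 59.0 to 63.0) held at least 1. Mesothelial-like cells, the lining of the liver surface (Msln, Upk3b, Wt1), followed with 161.2 CPM (144 to 180.2) and 104 of 140 cells (74.3%), where the median depth was 12070.5 UMIs per cell (5012 in stellate-like cells). Sinusoidal endothelial-like cells (Stab2, Clec4g, Oit3) had 2115 UMIs, 141.2 CPM (135 to 147), in 1151 of 2803 cells (41.1%). Portal fibroblast-like cells (Dpt, Clec3b, Mfap4) had 126.2 CPM (101 to 156) from 87 UMIs, and vascular endothelial-like cells (Vwf, Plvap) had 78.2 CPM (59.7 to 101) from 60 UMIs. The Csf1 level of stellate-like cells of replicate 2 was 1.51 times that of mesothelial-like cells (1.35 to 1.71), 1.73 times that of sinusoidal endothelial-like cells (1.63 to 1.83), 1.93 times that of portal fibroblast-like cells (1.56 to 2.42) and 3.12 times that of vascular endothelial-like cells (2.41 to 4.10).

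The share of cells with a Csf1 UMI grows with depth, so the shares were also read after thinning cells to 2000 UMIs. Cells with fewer UMIs were left out, 357 of the sinusoidal endothelial-like, 45 of the stellate-like and 7 of the portal fibroblast-like cells. The share was then 36.2% in stellate-like cells (34.2 to 38.2) and 30.0% in mesothelial-like cells (22.6 to 38.3). It was 21.3% in sinusoidal endothelial-like cells (19.7 to 23.0) and 21.7% in portal fibroblast-like cells (13.8 to 31.6). The intervals of stellate-like and mesothelial-like cells overlapped, as did those of sinusoidal endothelial-like and portal fibroblast-like cells. In T-like cells 1 of 148 cells held a Csf1 UMI before thinning (0.676%, median 3449.5 UMIs), and 0 of 139 after it (0 to 2.62%).

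Neutrophil-like cells (S100a8, S100a9, Retnlg, Mmp9) had the highest Csf1 level, 304 CPM, but from 20 UMIs in 7 of 27 cells, with 8 of the UMIs in 1 cell. Their interval (185.5 to 469) contains the stellate-like level, and the ratio of neutrophil-like over stellate-like cells was 1.25 (0.760 to 1.93). Among the next neighbours in the order, sinusoidal endothelial-like over portal fibroblast-like cells had a ratio of 1.12 (0.903 to 1.40), so these types did not differ beyond counting error. From vascular endothelial-like to cholangiocyte-like cells the level dropped by a ratio of 5.48 (3.31 to 9.38). Cholangiocyte-like cells had 14.3 CPM (22 UMIs), monocyte-like cells 6.32 CPM (2 UMIs), hepatocyte-like cells 5.53 CPM (8 UMIs) and Kupffer-like cells 5.30 CPM (64 UMIs in 55 of 2550 cells). No Csf1 UMI was found in B-like, plasmacytoid dendritic-like or NK or ILC1-like cells, where the limit of 3 UMIs was 21.1 to 41.7 CPM.

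The low Csf1 count of Kupffer-like cells was compared with sinusoidal endothelial marker RNA in the same cells. Per 100 endothelial marker UMIs, Kupffer-like cells had 2.81 Csf1 UMIs (2.16 to 3.603), against 1.58 (1.51 to 1.65) in sinusoidal endothelial-like cells themselves. The same quantity was 37.1 (35.5 to 38.7) in stellate-like cells. The intervals of Kupffer-like and sinusoidal endothelial-like cells did not overlap. These markers also set the sinusoidal endothelial gate, so the gates shape all of these values. The stellate-like value is from replicate 2, which held no sinusoidal endothelial-like cell. Whether free RNA gave the Kupffer-like count was not tested.

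**Figure D1:**
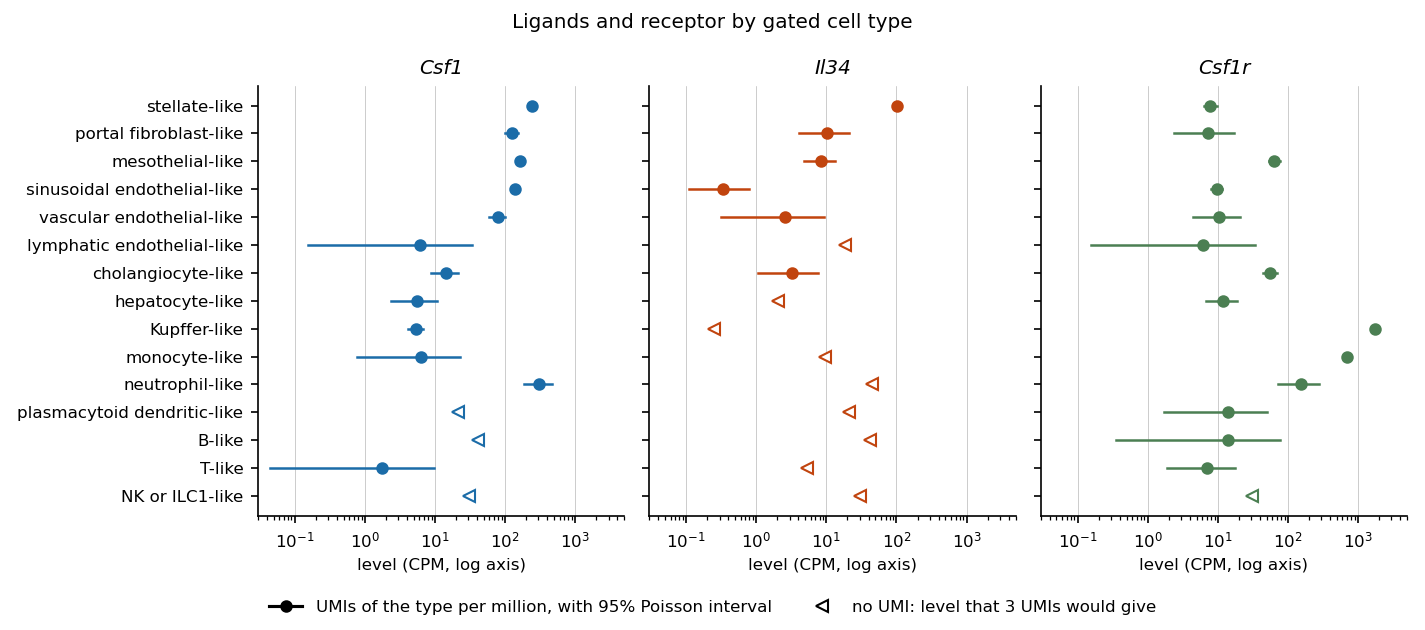
Level of Csf1, Il34 and Csf1r in CPM (log axis) in the 15 gated types, with 95% Poisson intervals for counting error; open triangles mark types with no UMI at the level 3 UMIs would give. Csf1 is spread over stellate-like, mesothelial-like and endothelial-like types, Il34 stands at 103.2 CPM in stellate-like cells and at 10.2 CPM or less in the other types with a UMI, and Csf1r peaks at 1764 CPM in Kupffer-like cells.

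Il34 was far more restricted. Stellate-like cells had 1225 Il34 UMIs, 103.2 CPM (97.5 to 109), in 839 of 2340 cells (35.9%, 33.9 to 37.8). Among types of at least 20 cells, portal fibroblast-like cells came next with 10.2 CPM (4.08 to 20.9) from 7 UMIs. Mesothelial-like cells had 8.32 CPM (16 UMIs), cholangiocyte-like cells 3.24 CPM (5 UMIs) and vascular endothelial-like cells 2.61 CPM (2 UMIs). Smooth muscle-like cells of replicate 1, with 15 cells below that minimum, had 19.7 CPM (2.38 to 71.1) from 2 UMIs. The stellate-like level was 10.2 times the portal fibroblast-like level (4.92 to 25.4) and 12.4 times the mesothelial-like level (7.61 to 21.8). The neighbours below stellate-like cells, from portal fibroblast-like to sinusoidal endothelial-like, had intervals of their ratios that all contained 1. The ends of this range still lay apart, at 4.08 to 20.9 CPM in portal fibroblast-like and 0.108 to 0.779 CPM in sinusoidal endothelial-like cells.

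Sinusoidal endothelial-like cells, which carried much Csf1, had 5 Il34 UMIs in 2803 cells, 0.334 CPM (0.108 to 0.779). The Il34 level of stellate-like cells was 309 times that (132 to 954). None of the 2550 Kupffer-like cells held an Il34 UMI. By the limit of 3 counts this allows a share of cells with an Il34 UMI of up to 0.118% and a level of up to 0.249 CPM, which says nothing of cells that express the gene below detection. The remaining 8 types with no Il34 UMI were lymphatic endothelial-like, monocyte-like, plasmacytoid dendritic-like, neutrophil-like, T-like, B-like, hepatocyte-like and NK or ILC1-like cells, in which 3 UMIs would be 2.07 to 45.6 CPM. Il34 overlaps the antisense genes Gm15894 and Gm15895, and the strand setting of the count is not given in the sources used here. Those genes had 8 and 13 UMIs in stellate-like cells and 0 in each of the other 14 types.

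The 10 stellate-like cells of replicate 1 allowed a small comparison within a type, although their stellate markers summed to 8283 CPM, against 15210 CPM in replicate 2. Il34 was at 103.2 CPM in those of replicate 2 and at 102 CPM in those of replicate 1 (8 UMIs in 4 cells), a ratio of 1.01 (0.512 to 2.35). Csf1 was at 243.8 CPM in replicate 2 and at 25.5 CPM in replicate 1 (2 UMIs in 2 cells), a ratio of 9.55 (2.64 to 78.9). Ngfr was at 115 CPM in replicate 2 and at 229.7 CPM in replicate 1 (18 UMIs), a ratio of 0.499 (0.315 to 0.844). The interval of the ratio thus contained 1 for Il34 and lay above 1 for Csf1, on 78356 UMIs in all for the 10 cells. Read only in replicate 1, the highest Csf1 levels were those of the neutrophil-like and mesothelial-like cells.

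The balance of the ligands differed between types. CPM of a 3' UMI assay counts molecules without regard to transcript length, and capture may differ between genes, so the share below is for comparing types and is not a ratio of proteins. Of the Csf1 and Il34 UMIs together, Il34 made up 29.7% in stellate-like cells of replicate 2 (1225 of 4118, 28.4 to 31.2), 7.45% in portal fibroblast-like cells (3.05 to 14.7), 4.91% in mesothelial-like cells (2.83 to 7.85) and 0.236% in sinusoidal endothelial-like cells (0.0766 to 0.550). In the 10 stellate-like cells of replicate 1 it made up 80% (8 of 10 UMIs, 44.4 to 97.5), so the stellate-like share also differed between the libraries. Within stellate-like cells of replicate 2, 560 (23.9%) held UMIs of both ligands, 867 (37.1%) held Csf1 only, 279 (11.9%) held Il34 only and 634 cells held neither. At least 1 ligand UMI was found in 1706 cells (72.9%). Most cells held few: 351 cells (15%) had 3 or more Csf1 UMIs, with a maximum of 17, and 87 (3.72%) had 3 or more Il34 UMIs, with a maximum of 8.

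Csf1r was a gene of Kupffer-like cells (Clec4f, Vsig4, Timd4, Cd5l). They had 21281 Csf1r UMIs, 1764 CPM (1740 to 1788), in 2356 of 2550 cells (92.4%, 91.3 to 93.4), with a median of 6 and a maximum of 51 UMIs per cell. They were 37.7% of the filtered cells of replicate 1 and held 94.8% of its Csf1r UMIs. Monocyte-like cells (Ccr2, Chil3, F13a1) had 698 CPM (609 to 797) from 221 UMIs in 35 of 39 cells (89.7%). The ratio of Kupffer-like over monocyte-like cells was 2.53 (2.21 to 2.90). Neutrophil-like cells had 152 CPM (72.8 to 279) from 10 UMIs in 8 cells. Conventional dendritic-like cells, with 17 cells below the minimum used for comparisons, had 11 Csf1r UMIs and 55.9 CPM.

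The level of Csf1r differed among Kupffer-like cells with their depth. Cells under 2000 UMIs had 1217 CPM (1137 to 1301), those of 2000 to under 4000 UMIs had 1665 CPM, those of 4000 to under 8000 UMIs had 1769.6 CPM and those of 8000 or more had 1896 CPM (1855 to 1938). Without the cells under 2000 UMIs the Kupffer-like level was 1798 CPM. Csf1r changed little with the cytokine genes that Kupffer-like cells carried. Cells with a Tnf UMI had 1805 CPM and cells without had 1739 CPM, a ratio of 1.04 (1.01 to 1.07), and the ratios were 1.08 for Cxcl2, 1.02 for Ccl3 and 0.975 for Ccl4. For Il1b it was 1.24 (1.17 to 1.32), with 1785 CPM in 2239 cells with Il1b and 1439 CPM in 311 cells without. The median depth was 4450 UMIs with Il1b and 1555 without, and the part of depth in these ratios was not tested.

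Kupffer-like cells with UMIs of 2 or more of the cell cycle genes Top2a, Mki67, Ube2c and Birc5 stood lower. The 97 such cells had 1203 CPM (1132 to 1279) and the other 2453 cells had 1807 CPM (1783 to 1833), a ratio of 0.666 (0.625 to 0.709). Their median depth was 8178 UMIs, against 3914 in the other cells, and the split was not made at matched depth. Csf1r was still detected in 94 of the 97 cells (96.9%).

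Outside the myeloid types, Csf1r was highest in mesothelial-like and cholangiocyte-like cells. Mesothelial-like cells had 64.0 CPM (53.2 to 76.3) from 123 UMIs in 58 of 140 cells (41.4%). Cholangiocyte-like cells, of the bile duct lining (Epcam, Krt7, Krt19), had 55.8 CPM (44.6 to 68.9) from 86 UMIs in 48 of 101 cells (47.5%, median depth 10291 UMIs), with at most 4 in a cell. After thinning to 2000 UMIs the shares were 8.57% (4.51 to 14.5) in mesothelial-like and 15.8% (9.33 to 24.4) in cholangiocyte-like cells, against 1.80% (1.31 to 2.41) in sinusoidal endothelial-like and 1.74% (1.25 to 2.37) in stellate-like cells. Among the remaining types outside the myeloid and dendritic cells, the Csf1r level lay between 6.11 CPM in lymphatic endothelial-like and 13.9 CPM in B-like cells, and no UMI was found in NK or ILC1-like cells (limit 30.6 CPM).

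Csf1r was also read beside the Kupffer markers in each type, since RNA released from Kupffer cells can reach any droplet. Kupffer-like cells were gated for these markers, and other types for a lower sum of them than of their own. The gates therefore shape this quantity. Kupffer-like cells had 11.6 Csf1r UMIs per 100 Kupffer marker UMIs (11.4 to 11.8). The same quantity was 12.9 (10.3 to 16.0) in stellate-like cells, 9.94 (8.31 to 11.8) in sinusoidal endothelial-like cells, 11.6 (3.59 to 29.3) in portal fibroblast-like cells and 8.25 (4.72 to 13.5) in hepatocyte-like cells. The stellate-like value is from replicate 2, which held no Kupffer-like cell, while the Kupffer-like and the other values are from replicate 1. The intervals of these 4 types contained the Kupffer-like value. Their Csf1r levels were 7.25 to 11.8 CPM, and whether free RNA gave them was not tested. Per 100 Kupffer marker UMIs, mesothelial-like cells had 106 Csf1r UMIs (81.6 to 138) and cholangiocyte-like cells 116 (84.2 to 161). Neutrophil-like cells had 100 (37.4 to 268) and monocyte-like cells 762 (516 to 1165). Of the 93 Csf1r UMIs of stellate-like cells, 55 were in cells with no Kupffer marker UMI, at 6.28 CPM.

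**Figure D2:**
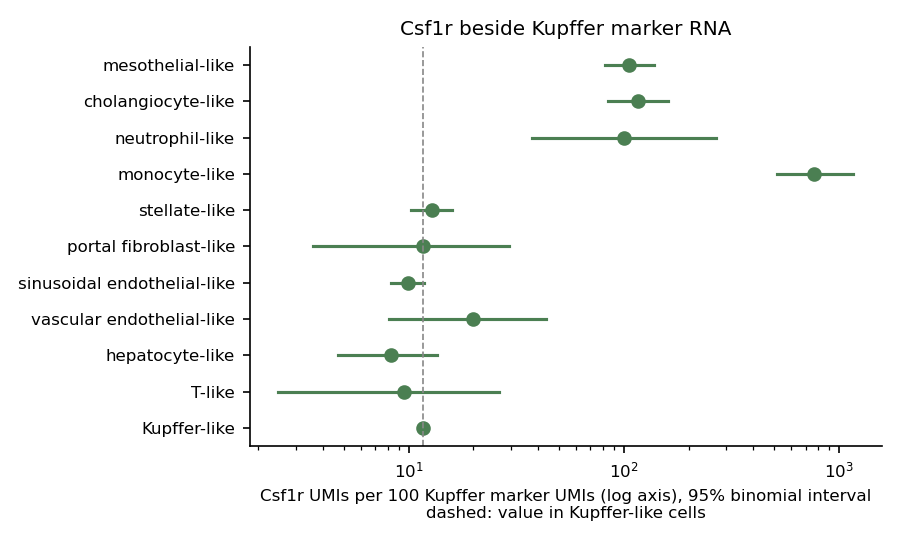
Csf1r UMIs per 100 UMIs of the Kupffer markers (log axis, 95% binomial intervals for counting error) in types with at least 4 Csf1r UMIs; the dashed line is the value in Kupffer-like cells, 11.6. Stellate-like cells are from replicate 2 and all other types from replicate 1. Stellate-like, endothelial-like, fibroblast-like, hepatocyte-like and T-like cells have intervals that contain the line, while mesothelial-like, cholangiocyte-like, neutrophil-like and monocyte-like cells lie above it.

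Other macrophage genes, chosen after these values were seen, separated cholangiocyte-like from mesothelial-like cells. In cholangiocyte-like cells Csf1r stood at 3.16% of its Kupffer-like level, against 0.317% for C1qa, 0.350% for Tyrobp, 0.324% for Ptprc, 0.674% for Spi1, 0.409% for Adgre1 and 0.414% for Lyz2. In mesothelial-like cells Csf1r stood at 3.63% of that level, and Tyrobp at 2.46%, Spi1 at 2.03%, Lyz2 at 1.99%, Ptprc at 1.56%, C1qa at 0.953% and Adgre1 at 0.874%. These 6 genes stood at 0.336% to 0.630% in stellate-like cells of replicate 2. In sinusoidal endothelial-like cells, of the same library as both types, they stood at 0.575% (C1qa) to 1.70% (Ptprc). Gene by gene, all 6 were lower than that in cholangiocyte-like cells, and all but Ptprc were higher in mesothelial-like cells. Hepatocyte-like cells had more Spi1 (2.34%), Ptprc (2.41%) and Adgre1 (1.16%) than mesothelial-like cells. In cells with no UMI of any Kupffer marker or of these 6 genes, Csf1r was at 55.1 CPM (33.6 to 85.1) in 36 cholangiocyte-like cells, at 50.7 CPM (33.4 to 73.7) in 48 mesothelial-like cells and at 8.31 CPM (6.11 to 11.1) in 1266 sinusoidal endothelial-like cells. The ratio to sinusoidal endothelial-like cells in such cells was 6.62 (3.72 to 11.4) for cholangiocyte-like and 6.09 (3.65 to 9.99) for mesothelial-like cells. The end of Csf1r overlaps the end of Hmgxb3 on the other strand over 873 bases. Hmgxb3 was at 22.1 CPM in cholangiocyte-like, 10.9 CPM in mesothelial-like and 26.8 CPM in sinusoidal endothelial-like cells, and its part in the Csf1r counts was not tested.

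Set against each other, ligand and receptor lay mostly in different types. Summed over both ligands, the level was 347 CPM in stellate-like cells of replicate 2 (128 CPM in the 10 of replicate 1) and 142 CPM in sinusoidal endothelial-like cells, where the Csf1r levels were 7.84 CPM (stellate-like) and 9.62 CPM (sinusoidal endothelial-like). Kupffer-like cells had 5.30 CPM of ligand and 1764 CPM of receptor, and monocyte-like cells had 6.32 and 698 CPM. Both sides were present in mesothelial-like cells, with 169.5 CPM of ligand and 64.0 CPM of Csf1r, and in the 27 neutrophil-like cells, with 304 and 152 CPM. In cholangiocyte-like cells the sum was 17.5 CPM beside 55.8 CPM of Csf1r. Of all Csf1 UMIs in filtered cells of replicate 1, sinusoidal endothelial-like cells held 74.8% (2115 of 2826), mesothelial-like cells 11.0% and portal fibroblast-like cells 3.08%. These shares depend on which cells survived dissociation and the gradient, and stellate-like cells were nearly absent from that library.

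**Figure D3:**
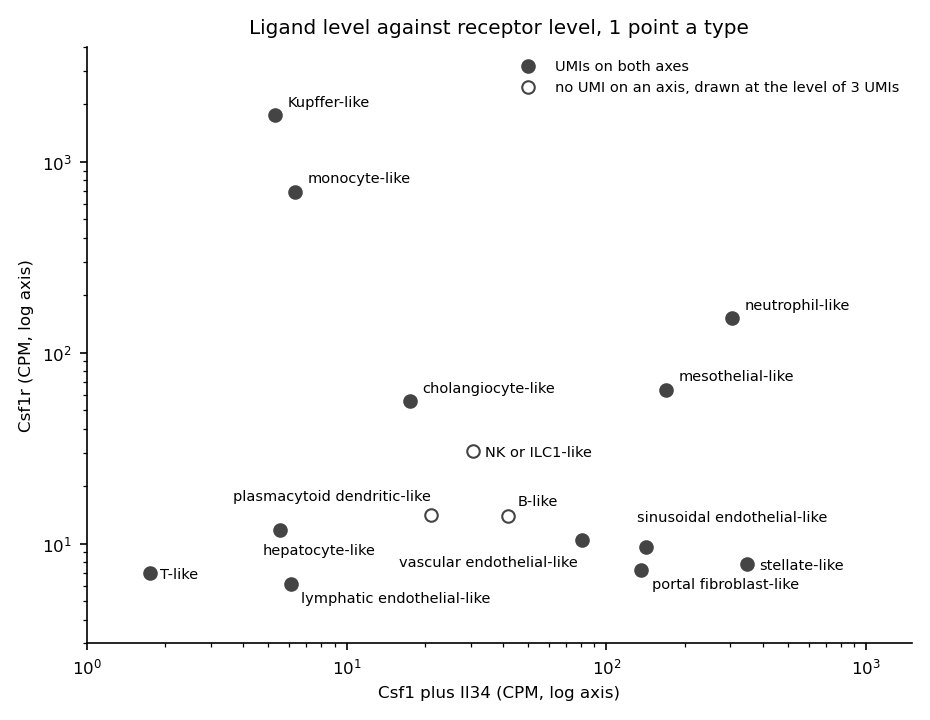
Summed level of Csf1 and Il34 (x) against the level of Csf1r (y), both in CPM on log axes, with 1 point for each of the 15 types; open points have no UMI on an axis and are drawn at the level of 3 UMIs. Kupffer-like and monocyte-like cells lie at the upper left, stellate-like, portal fibroblast-like and endothelial-like cells at the lower right, and mesothelial-like and neutrophil-like cells have both.

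Il34 was next compared with Ngfr among the 2341 cells of replicate 2. Ngfr, a receptor of neurotrophins, lies at chr11:95568818-95587735 on the minus strand. Il34 was at 138 CPM (127 to 149.7) in the 778 cells with an Ngfr UMI and at 83.6 CPM (77.2 to 90.4) in the 1563 cells without, a ratio of 1.65 (1.47 to 1.85). At least 1 Il34 UMI was found in 48.1% of cells with Ngfr (44.5 to 51.6) and in 29.8% of cells without (27.6 to 32.2). The median depth was 5487 UMIs with Ngfr and 4770 without. Cells were also thinned to a fixed depth before the split, which left out cells with fewer UMIs, 583 at 4000 UMIs and 45 at 2000 UMIs. After thinning to 4000 UMIs the shares were 40.4% (36.1 to 44.8) with Ngfr and 26.6% (24.2 to 29.2) without. After thinning to 2000 UMIs they were 22.6% (18.6 to 27.0) with Ngfr and 15.2% (13.6 to 16.8) without. The genes overlapped rather than coincided: 374 cells held both, 404 held Ngfr only, 466 held Il34 only and 1097 held neither.

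The Il34 level followed the number of Ngfr UMIs. It was 83.6 CPM in cells with 0, 119 CPM with 1 (455 cells), 145 CPM with 2 (170 cells), 152 CPM with 3 (86 cells) and 219 CPM (176 to 269.6) with 4 or more (67 cells). The share of cells with Il34 went along from 29.8% at 0 through 42.4%, 50.6% and 55.8% to 70.1% at 4 or more. Csf1 showed the same order at 209.8, 271, 303, 369 and 417 CPM. Between neighbouring steps the intervals lay apart from 0 to 1 Ngfr UMI for both ligands and overlapped at every later step. Csf1r was at 7.28, 9.49, 9.43, 7.70 and 4.87 CPM and showed no such order.

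**Figure D4:**
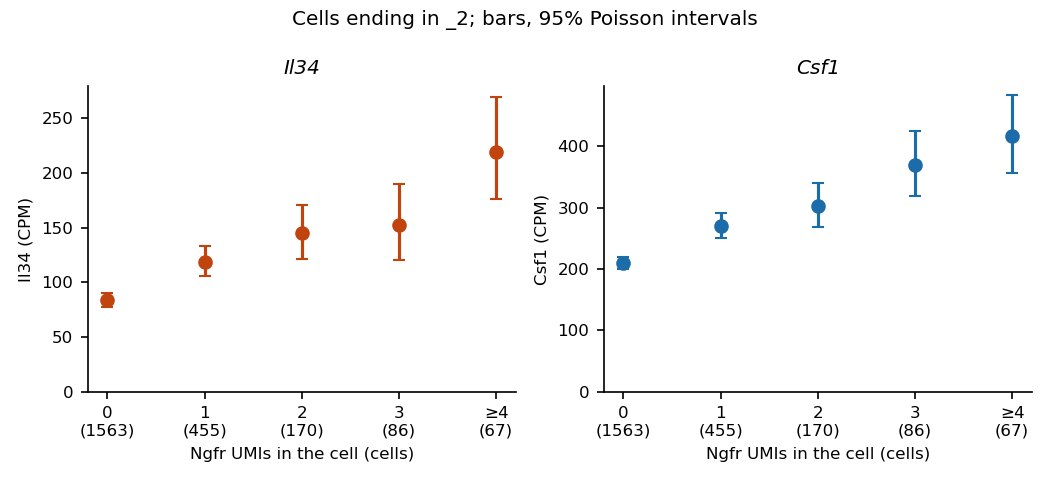
Level of Il34 (left) and Csf1 (right) in CPM in cells of replicate 2 grouped by their number of Ngfr UMIs, with the number of cells in brackets and 95% Poisson intervals for counting error. Il34 runs from 83.6 CPM in cells with no Ngfr UMI to 219 CPM in cells with 4 or more, and Csf1 from 209.8 to 417 CPM.

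Csf1 was thus not evenly spread over the Ngfr split. It was at 304 CPM (287 to 320.5) in cells with Ngfr and at 209.8 CPM (199.6 to 220.4) in cells without, a ratio of 1.45 (1.34 to 1.56). After thinning to 4000 UMIs, 60.5% of cells with Ngfr (56.2 to 64.8) and 52.3% without (49.5 to 55.1) held a Csf1 UMI. At 2000 UMIs the shares were 40.5% (35.7 to 45.5) with Ngfr and 34.5% (32.4 to 36.7) without, with intervals that overlapped. Il34 made up 31.3% of the ligand UMIs (29.2 to 33.4) in cells with Ngfr and 28.5% (26.6 to 30.4) in cells without, so the balance of the ligands differed little across it. For Csf1r the ratio was 1.21 (0.780 to 1.87). Among 10668 genes with at least 50 UMIs, 48 (0.45%) reached a 2-fold higher level in cells with Ngfr and 54 (0.506%) a 2-fold lower one, and the median ratio was 0.997. Neither ligand passed 2-fold. By the size of the ratio Il34 ranked 129 and Csf1 ranked 277 of the 10668.

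The genes with the largest ratios in cells with Ngfr were led by Notch3, a receptor typical of mural cells, at 9.98 CPM with Ngfr and 1.59 CPM without (6.29-fold, 3.26 to 13.1). Kcnk3, Mgp, Tmem178, Procr, Myh11 (smooth muscle myosin), Vtn and Adamts4 followed at 5.35-fold to 3.25-fold. Most of these had few molecules, such as 43 Notch3 UMIs in cells with Ngfr and 12 in cells without. Ccl2, the chemokine that draws monocytes through CCR2, was the abundant exception, at 712 CPM with Ngfr and 218 CPM without (3.26-fold, 3.07 to 3.46). The 10 genes at the other end were Glp2r, S100a6, Chp2, 5730507A11Rik, Cdc25b, Lipt2, Rian, Inmt, F3 and Retreg1, with ratios of 0.166 to 0.346. Of these Inmt had the most UMIs, at 20.2 CPM with Ngfr and 61.9 CPM without. For S100a6, 1 cell held 51.3% of the UMIs in replicate 2.

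Landmark genes of the lobule's zones gave a further reading of where the ligands lie. The landmarks come from general knowledge of stellate zonation, and no position was measured in these cells. For Igfbp3, a portal landmark, Il34 was at 128 CPM in cells with it and at 73.6 CPM in cells without (ratio 1.74, 1.54 to 1.97), and for Itgb3 it was at 122 CPM in cells with it and 91.3 CPM in cells without (ratio 1.34). For the central landmarks the ratios lay below 1, at 0.522 (0.466 to 0.585) for Adamtsl2, 0.513 (0.453 to 0.581) for Podn, 0.625 (0.516 to 0.751) for Spon2 and 0.662 (0.560 to 0.778) for Loxl1. Csf1 had the same direction at every landmark with smaller departures from 1, with ratios of 1.21 for Itgb3, 1.14 for Igfbp3, 0.883 for Adamtsl2, 0.842 for Podn, 0.781 for Spon2 and 0.897 for Loxl1. The 387 cells with a UMI of a portal landmark (Ngfr, Itgb3 or Igfbp3) and none of a central one had 188 CPM of Il34, and the 568 cells with a central and no portal one had 58.3 CPM, a ratio of 3.22 (2.65 to 3.91). Csf1 was at 313 CPM in the portal and 201.5 CPM in the central set, a ratio of 1.55 (1.38 to 1.75). The intervals of the Il34 and Csf1 ratios did not overlap.

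In sinusoidal endothelial-like cells Csf1 showed little relation to landmarks. The 4 portal landmarks gave ratios of 1.11 (1.02 to 1.21) for Efnb2, 0.992 for Dll4, 0.897 (0.747 to 1.07) for Adgrg6 and 1.06 for Ltbp4. The central landmarks Wnt2, Rspo3 and Kit gave 1.01, 1.01 and 0.983, with intervals that contained 1. Wnt9b, which marks the endothelium of the central vein as well as the nearest sinusoids, was the exception, with 107 CPM in 171 cells with it and 144 CPM in 2632 cells without (ratio 0.740, 0.613 to 0.886).

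**Figure D5:**
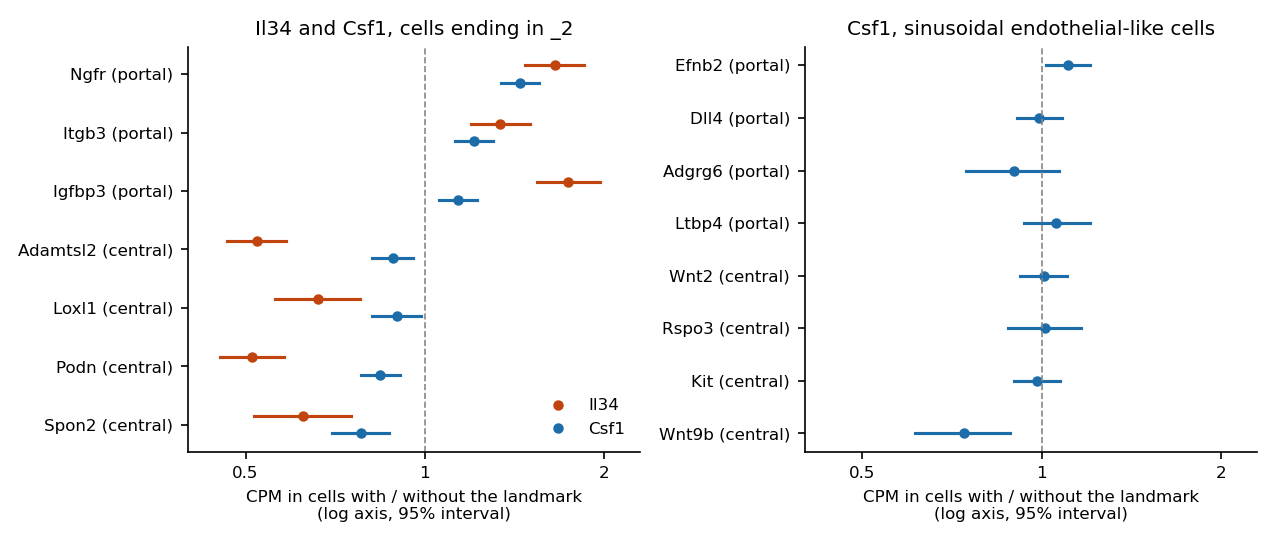
Ratio of CPM in cells with a landmark UMI over cells without (log axis, 95% intervals for counting error), for Il34 and Csf1 in the cells of replicate 2 (left) and for Csf1 in sinusoidal endothelial-like cells (right). Both ligands lie above 1 at the portal and below 1 at the central stellate landmarks, with Il34 farther from 1 than Csf1, while Csf1 in sinusoidal endothelial-like cells stays between 0.740 and 1.11.

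The ligands were also used to split the cells of replicate 2, an addition made after the data were seen. Among 10668 genes, 19 (0.178%) had a level 2-fold or more higher and 23 (0.216%) one 2-fold or more lower in cells with Il34 than without, and by the same measure 15 (0.141%) were higher and 12 (0.112%) lower in cells with Csf1 than without. Of the 5 genes with the largest ratios for Il34, the mural genes Myh11 and Notch3 stood at 4.98-fold (3.25 to 7.85) and 4.65-fold (2.48 to 9.23), and Tmem178 at 2.86-fold. S100a6 and Acta2 completed the 5, but without the cell richest in each, which held 51.3% and 36.1% of the UMIs, their ratios were 1.98 and 1.40. The lowest were Ncam1 (0.198), C3 (0.290, and 0.441 without its richest cell), Glp2r (0.331), Fuk (0.366) and Map3k5 (0.369). For Csf1 the highest was Ccl2, at 527 CPM in cells with Csf1 and 167 CPM in cells without (3.16-fold, 2.92 to 3.43), followed by Adamts4, Accs, Gm26881 and Spata13 at 2.99-fold to 2.57-fold. The lowest for Csf1 were S100a6 (0.259), Acta2 (0.302), Fam57a (0.389), C3 (0.410) and Car3 (0.411), of which S100a6, Acta2 and C3 came to 1.03, 0.679 and 0.819 without their richest cell. Read the other way, the 792 cells with a Ccl2 UMI had 349.7 CPM of Csf1 and the 1549 cells without had 185 CPM (ratio 1.89, 1.76 to 2.04). Il34 in the same split was at 130.0 CPM in cells with Ccl2 and 88.5 CPM in cells without (ratio 1.47, 1.31 to 1.65). Cells with Il34 had 275 CPM of Csf1 and cells without had 224 CPM, a ratio of 1.23 (1.14 to 1.32). Csf1r in the split by Csf1 was at 9.33 CPM in cells with Csf1 and 5.16 CPM in cells without (ratio 1.81, 1.11 to 3.06), where the median depth was 5254.5 UMIs with Csf1 and 4626 UMIs without.

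Genes that act with the pathway were read in Kupffer-like, stellate-like and sinusoidal endothelial-like cells, each against the mean of the other 14 types. Over all 14914 genes with at least 50 UMIs, by 2-fold or more, 11.6% were higher and 35.3% lower in Kupffer-like cells, 13% and 26.4% in stellate-like cells, and 14.9% and 28.8% in sinusoidal endothelial-like cells. Of 15 genes for transcription of Csf1r and signalling below it, by that measure 11 were higher and 0 lower in Kupffer-like cells, with a median log2 ratio of 1.41 against -0.44 over all genes. In stellate-like cells 0 were higher and 11 lower (median -2.78 against -0.11), and in sinusoidal endothelial-like cells 2 were higher and 9 lower (median -1.504 against -0.12). Gab2, an adaptor protein, had 97.1 CPM in Kupffer-like cells and a mean of 23.5 CPM in the other types (4.13-fold). Spi1 (PU.1), which drives transcription of Csf1r in myeloid cells, had 385 CPM against a mean of 97.9 CPM (3.93-fold). Cebpa had 101 against 29.7 CPM (3.39-fold) and the adaptor Grb2 416 against 125 CPM (3.32-fold). A level above the mean was not always the highest one. Spi1 was at 623 CPM in neutrophil-like and 547 CPM in monocyte-like cells, and Cebpa at 147 CPM in hepatocyte-like cells. The 2 genes that were higher in sinusoidal endothelial-like cells were Maf, at 3239 CPM against a mean of 312 CPM in the other types, and Ccnd1, at 469 against 163 CPM. Ccnd1 was higher still in plasmacytoid dendritic-like (709 CPM) and cholangiocyte-like cells (616 CPM).

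The 4 listed receptor partners were split. Ptprz1 and Sdc1 encode cell surface molecules known to bind IL-34, while Tyrobp and Trem2 act beside CSF1R in myeloid cells. In Kupffer-like cells Trem2 was higher (25.9 CPM against a mean of 7.04, 3.67-fold), and Sdc1 and Ptprz1 were lower. Tyrobp had 2221 CPM in them against a mean of 1280 (1.74-fold). Monocyte-like cells had more of both Trem2 (69.5 CPM) and Tyrobp (2480 CPM) than Kupffer-like cells. Sdc1 was at 478.5 CPM in vascular endothelial-like cells, against 3.98 CPM in Kupffer-like, 5.14 CPM in sinusoidal endothelial-like and 0.759 CPM in stellate-like cells. Ptprz1 had its highest level in mesothelial-like cells at 15.6 CPM and was at 3.03 CPM in stellate-like cells. In stellate-like cells 1 of the 4 was higher and 3 lower, and in sinusoidal endothelial-like cells all 4 were lower.

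Of the 11 other colony stimulating factors and related receptors, 8 had enough UMIs. In Kupffer-like cells 6 were lower and 2 higher. The 2 were Csf2ra (173 against 37.3 CPM, 4.65-fold) and Csf2rb (195 against 59.6 CPM, 3.28-fold), the receptor chains for GM-CSF. Both were higher still in monocyte-like cells (215 and 234 CPM) and in neutrophil-like cells (213 and 364 CPM). Of the 6 that were lower, Csf3r was at 44.8 CPM in Kupffer-like and at 1792 CPM in neutrophil-like cells. In stellate-like cells 3 were lower, and the 2 higher genes were Pdgfra (225 against a mean of 31.7 CPM) and Pdgfrb (213 against 10.2 CPM). Both encode receptor kinases related to Csf1r. Pdgfra was higher still in portal fibroblast-like cells, at 437 CPM. In sinusoidal endothelial-like cells 5 were lower. Kit (266 against 9.32 CPM) and Kitl (144 against 46.5 CPM), a further receptor of that family and its ligand, were higher there. Kitl was higher still in vascular endothelial-like (266 CPM) and mesothelial-like cells (209 CPM). Csf2 and Csf3, the genes of GM-CSF and G-CSF, had 0 UMIs in stellate-like cells and at most 22 in any of these 3 types, and Flt3 was the third gene under the minimum.

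The 12 genes of the Kupffer cell niche, which the macrophage receives as signals or turns on in reply, were divided between the types. In stellate-like cells 6 were higher and 5 lower. Bmp10 had 238 CPM, against a mean of 0.222 CPM in the other types and 1.45 CPM in the next type. Ccl2 had 398 CPM against a mean of 36.0 CPM (11.1-fold), Zeb2 867 against 210.5 CPM (4.12-fold) and Cx3cl1 13.9 against 3.61 CPM (3.85-fold). Vcam1 had 446 against 170.0 CPM (2.62-fold) and Id3 1453 against 632 CPM. Cx3cl1 was higher still in cholangiocyte-like (21.4 CPM) and portal fibroblast-like cells (16.0 CPM). Vascular endothelial-like cells had more Vcam1 (626 CPM) and Id3 (1490 CPM) than stellate-like cells. In Kupffer-like cells 5 were higher and 4 lower. Spic had 208 CPM against a mean of 2.36 CPM, Nr1h3 (LXR alpha) 657 against 24.0 CPM, Vcam1 1221 against 115 CPM, Id3 2155 against 582 CPM and Zeb2 677 against 224 CPM. In sinusoidal endothelial-like cells the Notch ligand gene Dll4 was the 1 gene that was higher, at 122 against 20.2 CPM, and 5 were lower. Vascular endothelial-like cells had more Dll4, at 164 CPM.

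Across the 15 types the genes most like each member were named by Pearson's r of log2(CPM + 1), among 14914 genes. The types share 2 libraries and differ in depth, so the values are a description over 15 points. For Csf1 they were Jam3 (0.896), Bace2 (0.896), Igfbp7 (0.893), Mxra7 (0.886) and Col4a2 (0.885). For Il34 they were Adcy5 (0.988), Wfdc1 (0.959), Sod3 (0.958), Gm17396 (0.956) and Hey2 (0.952), each with its highest level in stellate-like cells. For Csf1r they were Adgre1 (0.914), which encodes the macrophage antigen F4/80, Treml4 (0.899), Tbxas1 (0.897), Cd300a (0.894) and Gm37651 (0.878), each highest in Kupffer-like cells.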

How the data were processed

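The authors deposited raw UMI counts, whole numbers per gene and cell, in 1 table of 22508 genes and 9703 cells. Cell Ranger 2.1.1, Seurat 3.1 and GRCm38 are named per the submitters' processing notes, with their roles not given in the sources used here. Barcode endings 1 and 2 were read as the replicate numbers, and 5 barcodes carry both. Filters of 200 genes or more and mitochondrial UMIs of 20% or less removed 597 cells of replicate 1 and 0 of replicate 2. Kept cells had 503 to 66125 UMIs in replicate 1 and 1263 to 13401 in replicate 2.

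A gate asked for at least 3 marker UMIs over at least 2 markers and at least 2 times the marker sum of any other type. Vascular and central vein endothelial-like cells share Vwf and were held apart by the higher sum. The gate's thresholds were set after the data were seen. No doublet caller was run, and the gate left out cells with mixed markers. Free RNA was not subtracted. Levels are a type's UMIs scaled to 1000000 (CPM). In ratios a 0 was replaced by 3 counts, with no ratio where neither side exceeded 3. No test or count model was fitted, since there is 1 group and all types but the stellate-like cells sit in 1 library.

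The members and gene lists were chosen with earlier results of these data known. Named genes are the members, list genes at least 2-fold apart with at least 50 UMIs (up to 6 a list), the 5 most alike genes per member and the 10 with the largest ratio on each side of the Ngfr split; others are said to have been chosen later. A few genes that the rule names are not reported here. The split of all genes was tested on simulated counts pooled for each side, drawn without spread between cells. That test therefore cannot speak for genes whose UMIs sit in few cells. Python 3.11.15, numpy, pandas and scipy were used.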

Additional observations from a re-analysis of the deposited data

How the results depend on the processing

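Each level was recomputed with a stricter and a looser gate, without the mitochondrial filter, with at most 10% mitochondrial UMIs, in cells of at least 2000 UMIs, as a mean of per-cell CPM and without either replicate. Leaving out the 5% of cells with the most UMIs, and cells with a macrophage UMI, was added after the data were seen. Of 42 alternatives for the main results, 37 stayed within the counting interval. Some of these, and some alternatives for the other levels below, kept exactly the same cells and could not move. Leaving out replicate 2 did so for types read in replicate 1. Leaving out replicate 1 or changing the mitochondrial filter did so for stellate-like cells. The counts of alternatives therefore overstate how far the levels were probed. Without replicate 2 the stellate-like Csf1 level was 25.5 CPM, below mesothelial-like and sinusoidal endothelial-like cells, and the Il34 level was 102 CPM, each from 10 cells. Without replicate 1 the stellate-like levels of Csf1 and Il34 were 243.8 and 103.2 CPM. The Kupffer-like Csf1r level was 1798 CPM in cells of at least 2000 UMIs and 1631 CPM as a mean of per-cell CPM. The Il34 ratio was 1.95 for at least 2 Ngfr UMIs against 0 and 1.34 when split by Itgb3. It was 1.59 after thinning to 2000 or 4000 UMIs, with cells of fewer UMIs left out. Of 109 alternatives for the other levels, 5 left the counting interval, and 1 moved by over 1.5 times: Csf1r in stellate-like cells was 38.3 CPM without replicate 2, from 3 UMIs. Without replicate 1 the other types hold no cells, so that alternative gave no value for them. No paired analysis was possible because the study has 1 group. Depth limits the types with the fewest UMIs most: 3 UMIs come to 45.6 CPM in neutrophil-like cells.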
